A study of Homo sapiens with 12 samples.

Results

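WNT proteins are secreted ligands that bind frizzled receptors together with coreceptors and thereby either stabilise beta-catenin, which drives target genes with the TCF and LEF factors, or act on cell polarity without it. Secreted frizzled-related proteins and WIF1 capture the ligands, some Dickkopf proteins block the coreceptors, and R-spondins bind LGR receptors and keep the frizzleds at the cell surface. Genes of such developmental pathways are known as frequent targets of the polycomb repressive complex 2, which sets the mark H3K27me3, histone 3 trimethylated at lysine 27. Here 46 genes of this pathway, of 20033 protein-coding genes of the annotation, were followed through H3K27me3 ChIP-seq. They were taken by name from the gene families: 19 WNT ligands, 10 frizzled receptors, 5 secreted frizzled-related proteins (FRZB included), 4 Dickkopf proteins, WIF1, 4 R-spondins, the receptors LGR5 and LGR6, and the feedback target AXIN2. All were found in the annotation.

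The cells were SH-SY5Y, a human neuroblastoma line. Wild type cells (WT), which express Tau, were compared with the Tau-KO lines 231K and 232P, in which CRISPR-Cas9 disrupted the Tau gene MAPT. Each genotype had 2 biological replicates, which makes 6 ChIP samples, and each Tau-KO genotype is a single line, so that an effect of Tau and a property of the line cannot be told apart within 1 line. Not analysed here were the 6 inputs. In both samples labelled 232P the names of the peaks start with 231P, which is the name of another Tau-KO line of the study. The samples are called here as labelled, and the lists do not settle which line they came from. Each sample had its own list of peaks, with 285826 and 222191 peaks in WT, 271413 and 212347 in 231K, and 147118 and 199677 in 232P. Relative to the deepest sample, the depth in percent was 100 and 66.6 in WT, 94.8 and 68.7 in 231K, and 68.1 and 56.9 in 232P. The median peak width was 441, 440 and 335 bp in the samples numbered replicate 1 and 682, 688 and 666 bp in those numbered replicate 2. The share of the genome in peaks also differed, with 214, 283, 197, 290, 70.3 and 212 Mb in the order WT, 231K and 232P, replicate 1 before replicate 2. All lists of 6 values below follow this order. A gene without a peak may still carry the modification below the threshold of the list.

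A TSS mark is a peak that shares at least 1 bp with the window of 1 kb before to 1 kb after an annotated start of the gene. As a check of the label, genes of other cell types were inspected. None of 4 blood genes had a TSS mark. Marked in all 6 samples were 2 of 4 liver genes (FOXA2 and ALB), 1 of 4 epithelial genes (KRT8) and 1 of 4 mesenchymal genes (PRRX1). No sample had a mark at 2 of the liver, 3 of the epithelial and 2 of the mesenchymal genes. Of 8 housekeeping genes, HPRT1 and PGK1, both on the X chromosome, were marked in 6 and 5 samples. H3K27me3 lists cannot show that a gene is expressed, and the identity of the cells was checked no further.

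Some members were marked and others were not, also within the same class. The samples had a TSS mark at 19, 19, 18, 19, 17 and 16 of the 46 members, between 34.8% and 41.3%, where all protein-coding genes had 14.5% to 18.4%. In all 6 samples 14 members were marked, or 30.4% against 11.4% of all genes. This excess was not seen in all samples for strong peaks, since among peaks whose -log10 q-value reached 5 only 1 member (2.17%) was marked in all 6 samples, against 2.78% of all genes, while 8 (17.4%) were marked in both WT samples, against 8.02%. The 14 members were the ligands WNT1, WNT2, WNT3A, WNT7A, WNT7B, WNT10B and WNT11, the antagonists SFRP1, SFRP2, SFRP5 and WIF1, and the agonists RSPO1, RSPO2 and RSPO3. A further 7 members were marked in 1 to 5 samples and 25 in none, beside 2115 and 15637 of all 20033 genes. When the whole gene with 1 kb on each side was considered, 19 members (41.3%) had a peak in all samples against 16.9% of all genes, and 20 members (43.5%) had none in any sample against 72.5%. All of these shares are descriptions of the list and were not tested.

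**Figure D1:**
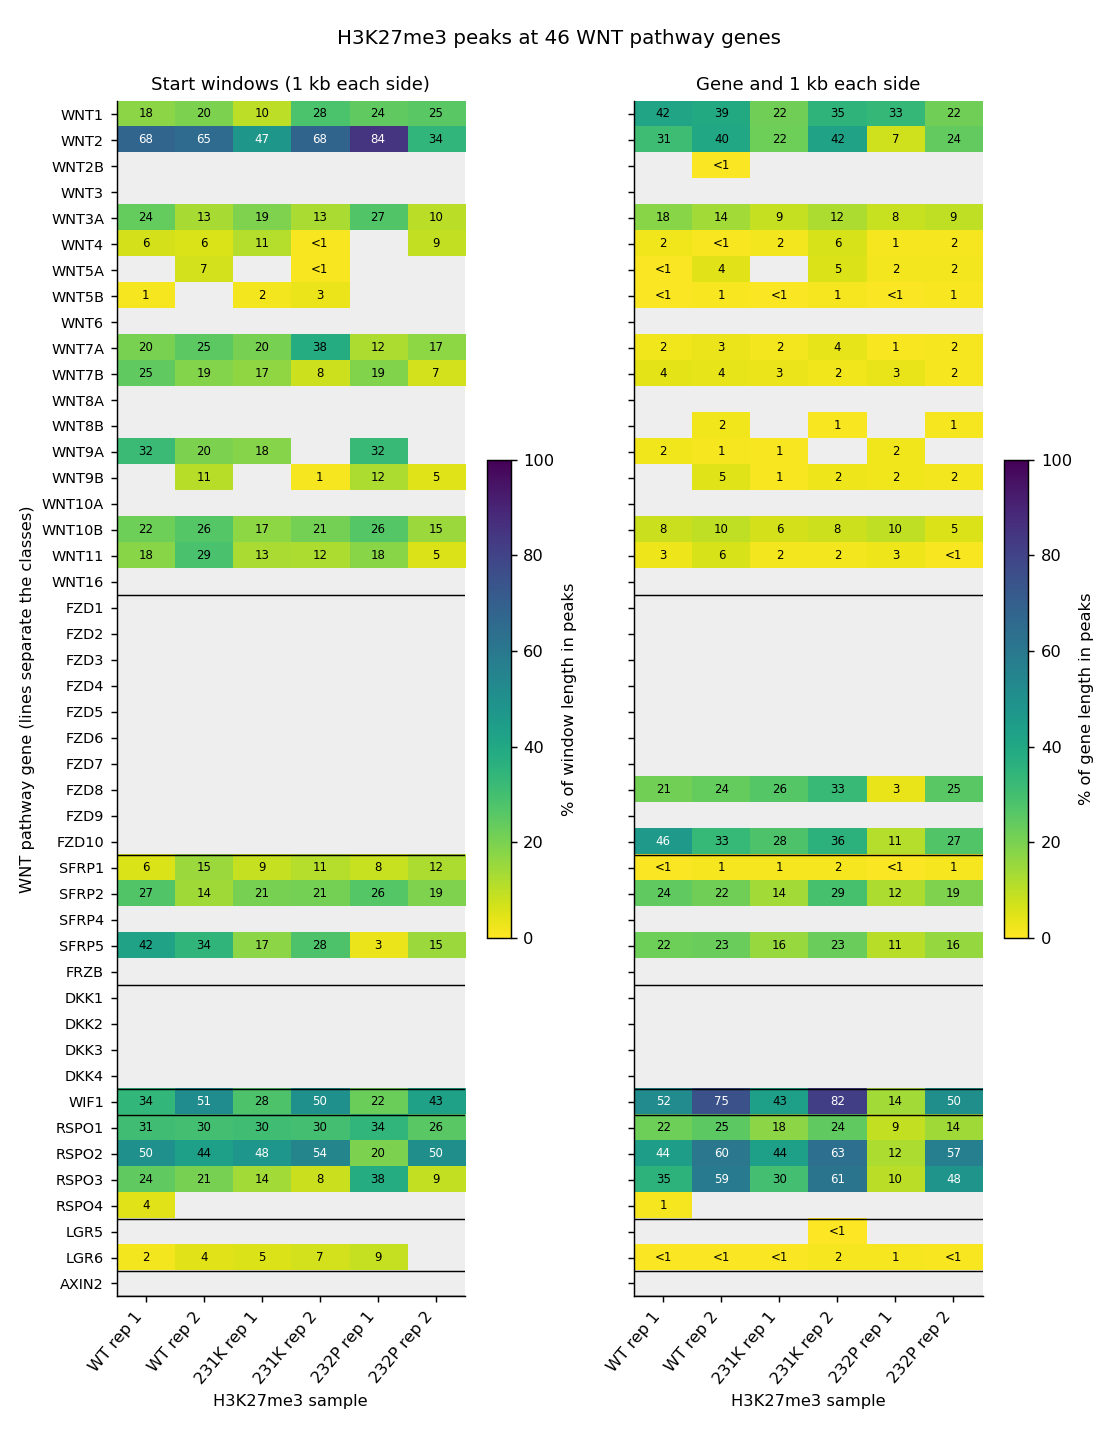
H3K27me3 peaks at the 46 WNT pathway genes (rows, by class) in the 6 samples (columns). Colour and number give the percent of the start windows (left) and of the gene with 1 kb on each side (right) that lay in peaks, grey cells had no peak, and rep is the replicate. The frizzled and Dickkopf rows are empty on the left in every sample, while WNT2, WIF1 and RSPO2 carry colour in all 6.

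The classes differed in how many of their genes were marked. Of the 19 ligands, 10, 11, 10, 11, 9 and 9 had a TSS mark. None of the 10 frizzled receptors had one in any sample, and neither had any of the 4 Dickkopf genes or AXIN2. Most genes had none either, 15637 of all 20033 protein-coding genes, so these counts do not set the small classes apart. Of the 5 secreted frizzled-related proteins, SFRP1, SFRP2 and SFRP5 were marked in every sample and SFRP4 and FRZB in none. The R-spondins were marked at 4 genes in WT replicate 1 and at 3 in the other samples. Among the marked classes the peaks at start sites had similar enrichments. Over all 6 samples, the median fold enrichment over the local background was 4.53 for 84 peaks of ligands, 5.30 for 26 peaks of secreted frizzled-related proteins, 4.89 for 58 peaks of R-spondins and 4.19 for 18 peaks of WIF1. The 8 peaks of LGR6 had a median of 3.54, but its peaks in 232P replicate 1 were stronger, up to 7.46. Pooled over samples, the median width was between 547 bp for the ligands and 904 bp for the secreted frizzled-related proteins. This order depended on the sample. In replicate 2 of WT, 231K and 232P the medians were 3768, 3731 and 1300 bp for R-spondins and 2394, 8688 and 6094 bp for WIF1. The secreted frizzled-related proteins had 1090, 1106 and 827 bp there. In replicate 1 these 3 classes had 688, 840 and 351 bp, 634, 307 and 329 bp, and 863, 791 and 779 bp. The widest peak, at WIF1, had 12407 bp. Peaks of 1 gene are not independent, and no test was made between classes.

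**Figure D2:**
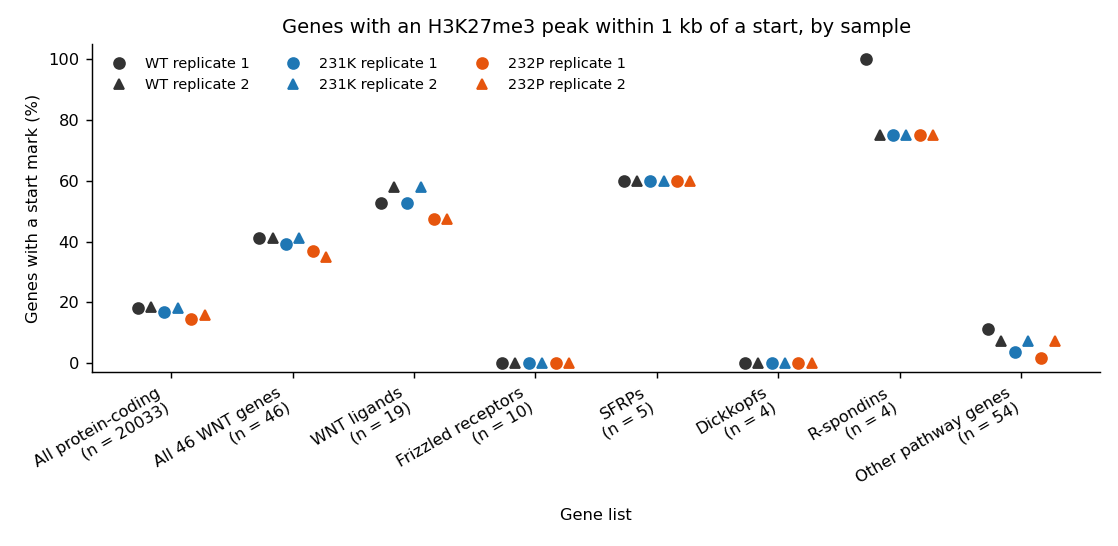
Percent of the genes of each list (x axis, with the number of genes) that had an H3K27me3 peak within 1 kb of a start site, 1 point per sample. Circles are replicate 1 and triangles replicate 2. All protein-coding genes lie at 14.5% to 18.4%, the 46 WNT pathway genes at 34.8% to 41.3%, and the frizzled receptors and Dickkopfs at 0.

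Within a sample, the start peaks of the members were about as strong as those of other marked genes. The median fold enrichment of the members' start peaks was 4.72, 5.58, 4.42, 4.79, 4.97 and 3.82, and that of the start peaks of all protein-coding genes 3.97, 4.62, 4.10, 4.87, 4.34 and 4.41. It was thus above the median of all genes in 4 samples and below it in both samples numbered replicate 2 of the Tau-KO lines. The members' peaks away from the start sites were numerous, with 226, 144, 212, 126, 104 and 150 peaks, and most of them lay in the R-spondin genes, with 151, 94, 146, 90, 72 and 102.

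The sequences show what kind of DNA lay under these peaks and what lay between them. RefSeq promoters (GRCh38.p14), of which the 250 bases before each start were used, were matched for 31 of the 46 members. The number of CG dinucleotides, a motif that reads the same on both strands, was counted in each. The median was 11 over 35116 promoters of all genes. The promoters of RSPO1 (21 CG) and WNT2 (38 CG) are shown because both genes had a TSS mark in every sample and yet no peak covered a base of either window in any sample. In WNT2 the highest point of the strongest start peak, in 231K replicate 2, lay 1202 bp into the gene, in intron 1, and in RSPO1 it lay 630 bp before the start in the same sample. The promoter of LGR6 (8 CG) is shown because it was the exception, with 177, 94, 169, 190, 250 and 0 of its 250 bases in peaks. Sequences are written 5′ to 3′ on the strand of the gene, with each CG in capitals. The windows of the promoters are chr7:117323059-117323308 (minus strand, WNT2), chr1:37634893-37635142 (minus strand, RSPO1) and chr1:202193549-202193798 (plus strand, LGR6), and those of 101 bases around the peaks' highest points are chr7:117321806-117321906 (WNT2) and chr1:37635472-37635572 (RSPO1).
WNT2 promoter, 38 CG: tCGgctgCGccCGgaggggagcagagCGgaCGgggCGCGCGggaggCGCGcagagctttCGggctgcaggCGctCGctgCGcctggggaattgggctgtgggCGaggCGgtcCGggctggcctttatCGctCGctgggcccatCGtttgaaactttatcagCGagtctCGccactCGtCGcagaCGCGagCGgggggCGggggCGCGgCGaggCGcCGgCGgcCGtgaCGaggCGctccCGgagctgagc
WNT2 strongest start peak, 3 CG: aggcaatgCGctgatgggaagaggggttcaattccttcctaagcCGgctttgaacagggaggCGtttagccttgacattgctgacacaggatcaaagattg
RSPO1 promoter, 21 CG: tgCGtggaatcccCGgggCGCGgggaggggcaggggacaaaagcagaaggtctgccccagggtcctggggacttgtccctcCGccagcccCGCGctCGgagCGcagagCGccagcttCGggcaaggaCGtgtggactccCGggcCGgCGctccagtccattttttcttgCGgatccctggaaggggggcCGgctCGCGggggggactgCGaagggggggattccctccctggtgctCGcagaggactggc
RSPO1 strongest start peak, 1 CG: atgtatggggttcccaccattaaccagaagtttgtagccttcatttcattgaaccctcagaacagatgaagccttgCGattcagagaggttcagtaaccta
LGR6 promoter, 8 CG: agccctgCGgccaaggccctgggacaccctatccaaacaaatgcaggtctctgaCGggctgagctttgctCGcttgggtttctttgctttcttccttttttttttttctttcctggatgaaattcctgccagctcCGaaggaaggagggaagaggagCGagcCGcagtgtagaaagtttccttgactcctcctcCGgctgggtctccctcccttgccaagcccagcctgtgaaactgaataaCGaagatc
At least 38 CG were present in 3.28% of all promoters, at least 21 in 30.2% and at least 8 in 56.3%. The GC content of the 2 peak windows was 50.5% in WNT2 and 43.6% in RSPO1, and that of the promoters 74.0% and 70.8%, with 53.2% in LGR6. The only other matched promoter of a member that a peak touched was that of RSPO3, with 8 CG, of which 67 bases were covered in 232P replicate 1.

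The same order held over the members as a whole. The peaks lay on both sides of the start sites and left the starts uncovered. Of the members with a mark at the canonical start, the start base itself was in a peak in 1 of 14 (WT replicate 1 and 2, 231K replicate 1 and 2), 1 of 15 (232P replicate 1) and 0 of 11 (232P replicate 2). This was not particular to the members. The ratio of observed to expected CG was taken over the 500 bp on each side of the start. Among all marked genes with a ratio over 0.6, 3.58% to 7.69% had the start base in a peak, whereas 39.1% to 57.5% of those with a ratio up to 0.6 did. Of the 46 members, 38 (82.6%) had a ratio over 0.6, against 66.3% of all genes and 41.8% of the 2281 genes with a TSS mark in all 6 samples. The 1 kb on each side of the canonical start was divided into bins of 100 bp. A bin counted as covered if its centre base lay in a peak. The 18 members with a mark there had 162 bins with over 65% GC, of which 8 (4.94%) were covered in any sample. Of their 198 bins with up to 65% GC, 134 (67.7%) were. The highest points of the strongest start peaks of the members had a GC content between 27.7% and 66.3%, with a median of 53.5% (108 peaks in 21 genes). In the complete lists, only 0.0777%, 0.0405%, 0.00995%, 0.00989%, 0.714% and 0.00801% of the highest points had over 65% GC, and 232P replicate 1 also had the highest median GC content, 45.5% against 40.6% to 42.6%. The share of the whole genome with over 65% GC was not determined. What part GC content had in which start sites were called marked was not tested. The share of bins with over 65% GC had a median of 42.5% over the 18 members marked at the canonical start, 40.0% over the 28 others and 25% over all genes. Of the classes without marks, the frizzleds had a median of 50%, while DKK1, DKK2, DKK3 and DKK4 had 15%, 5%, 55% and 0%.

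**Figure D3:**
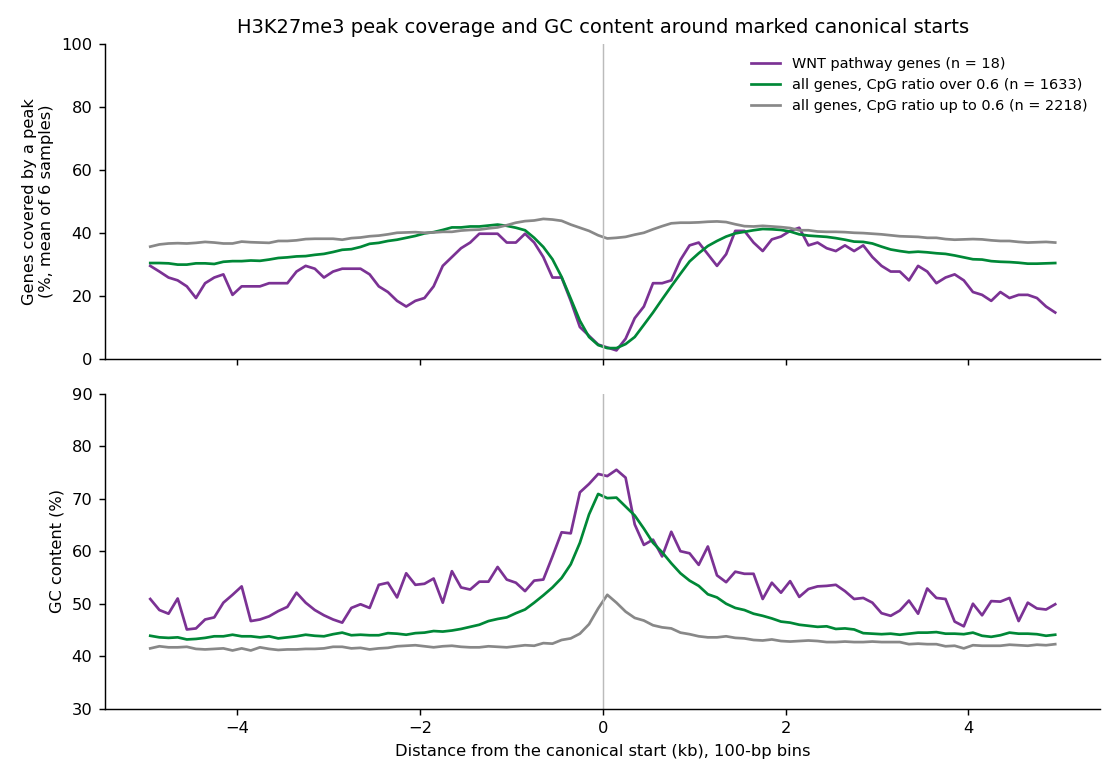
Upper panel, percent of genes whose 100-bp bin had its centre base in a peak, as the mean of the 6 samples. Bins are placed by distance from the canonical start (x axis, kb, positive into the gene). Lower panel, mean GC content of the same bins. Lines are the 18 WNT pathway genes, the 1633 genes with a CpG ratio over 0.6 and the 2218 genes with a ratio up to 0.6 that had a mark at the canonical start in any sample. Coverage of the WNT pathway genes falls towards 0 at the start, where their GC content is highest, as it does for the other genes with a ratio over 0.6.

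WNT2 had the highest median rank of the ligands. It is known as a ligand of the beta-catenin branch and lies on chromosome 7 (hg38, 117275451 to 117323152, minus strand, ENSG00000105989.10), where its span overlaps that of CFTR. The highest fold enrichment of its start peaks was 5.71, 9.25, 6.25, 10.7, 6.98 and 5.61, and the -log10 q-value was 8.58, 15.0, 9.16, 19.1, 7.60 and 8.77. Its median percentile rank among genes with a TSS mark was 91.1, where 100 is the gene with the highest -log10 q-value of its list. The values of the Tau-KO samples lay on both sides of those of WT. Outside the start windows 14.1, 18.6, 9.97, 19.5, 1.73 and 11.2 kb of the gene with 1 kb on each side were covered, as in all values outside the start windows below. WNT7B, a ligand with roles in the developing nervous system, had the next highest rank. Its mark had a fold enrichment of 6.75, 5.58, 6.56, 7.09, 6.18 and 3.09, and only 232P replicate 2 lay clearly below the others. The highest points of its strongest start peaks lay 2822 to 3759 bp downstream of the canonical start, in intron 1 and near another annotated start.

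Other ligands were marked in short peaks close to the start (described after their values were seen). WNT1, the founding member of the family, had a fold enrichment of 5.96, 2.95, 3.28, 4.58, 6.96 and 3.61, and the genotypes overlapped. WNT1 and WNT10B are neighbours, 6.59 kb apart, and both were marked in all samples, with 681, 818, 527, 646, 811 and 458 bp of the start window of WNT10B in peaks. In the pair WNT3A and WNT9A, 59.1 kb apart, WNT3A was marked in all samples and WNT9A in 4, without a mark in 231K replicate 2 and 232P replicate 2. In the pair WNT6 and WNT10A, 6.62 kb apart, neither gene had a peak in any sample. WNT3 and WNT9B lie 46 bp apart and differed, since WNT9B had a TSS mark in 4 samples (WT replicate 2, 231K replicate 2 and both 232P samples) and WNT3 had no peak in any. WNT5A, the prototype of the branch that acts without beta-catenin, had a TSS mark only in WT replicate 2 and 231K replicate 2, with 632 and 83 bp covered. WNT4 was marked in 5 samples and WNT5B in 3. WNT2B and WNT8B had peaks only away from their starts, in 1 and 3 samples. No peak lay in WNT3, WNT6, WNT8A, WNT10A or WNT16 or the 1 kb around them in any sample.

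**Figure D4:**
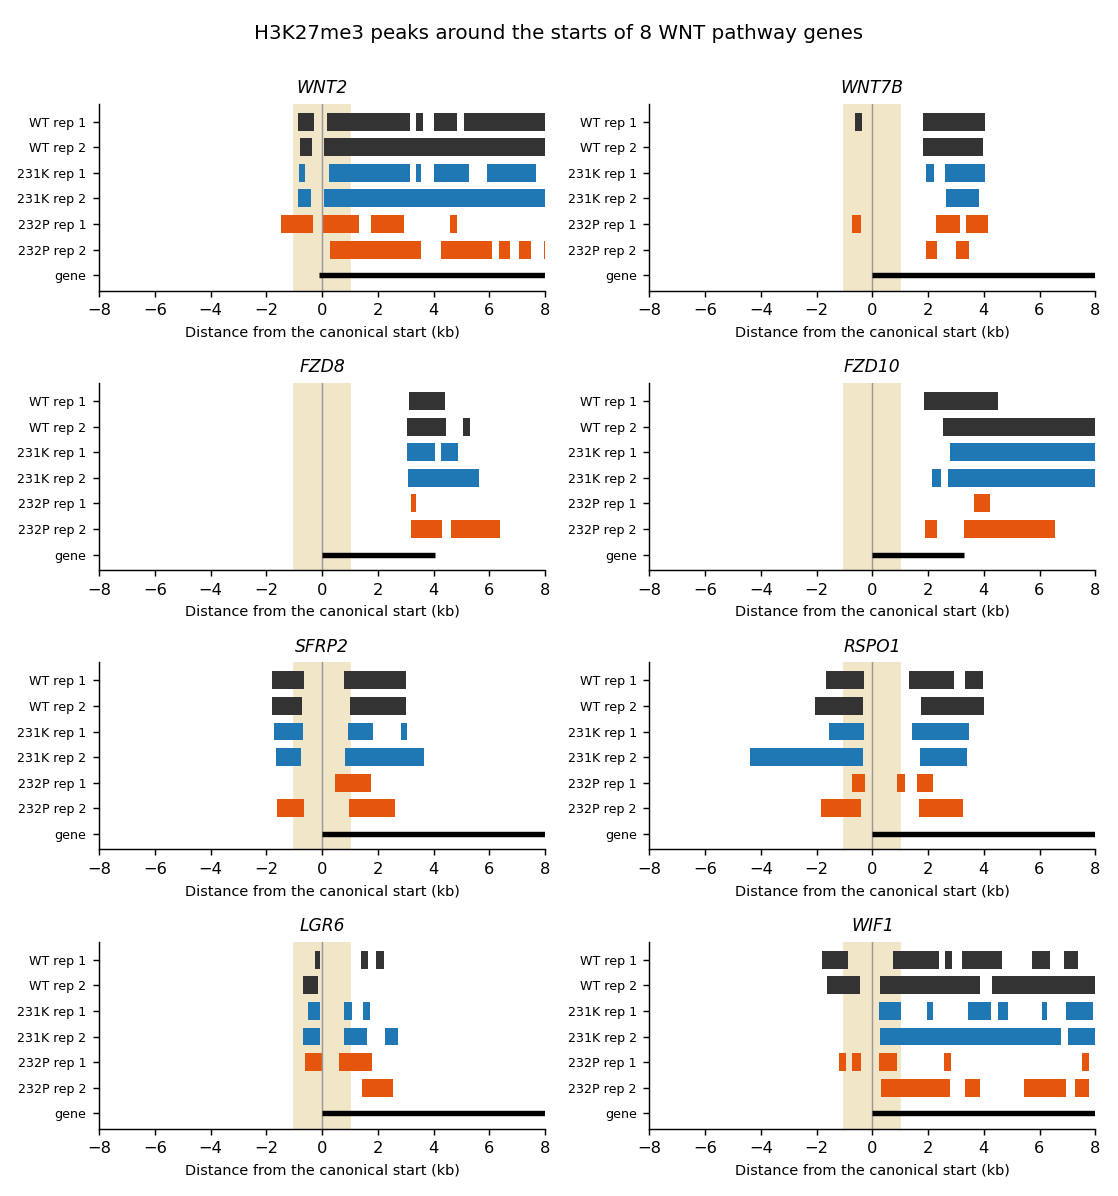
H3K27me3 peaks (bars) of the 6 samples around the canonical start of 8 WNT pathway genes, by distance in kb, with the direction of transcription to the right. The shaded band is the 1 kb on each side of the start, the black line the gene. Peaks that touch the gene or the 1 kb around it are drawn, and rep is the replicate. Peaks of SFRP2 and RSPO1 stand on both sides of an uncovered start, except in SFRP2 of 232P replicate 1. Those of FZD8 and FZD10 lie downstream of the shaded band, in the gene or beyond its end.

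The frizzled receptors, the 7-transmembrane receptors that bind WNT ligands, were without marks at their starts. FZD8 and FZD10, which consist of 1 exon each, did have peaks more than 1 kb downstream of the start in every sample. These lay in the gene or within 1 kb beyond its end. In FZD8 (chromosome 10, 35638247 to 35642296, minus strand) 1.28, 1.44, 1.59, 1.97, 0.198 and 1.54 kb of the gene with 1 kb on each side were covered, with the highest fold enrichment at 4.05, 6.73, 5.74, 4.07, 3.98 and 5.06. The lowest coverage was that of 232P replicate 1, in which WNT2, WIF1, RSPO2 and RSPO3 were lowest as well. In FZD10 (chromosome 12, 130162459 to 130165740, plus strand) 2.44, 1.75, 1.47, 1.88, 0.59 and 1.44 kb of the gene with 1 kb on each side were covered. The peaks continued beyond the gene, and the 1 peak of 232P replicate 1 lay wholly beyond it. Counting all peaks, the nearest one lay 1.27 to 3.13 kb from the start of FZD8 and 1.76 to 1.82 kb from that of FZD10, so a window of 2.5 kb would mark FZD10 in all samples and FZD8 in some. FZD1, FZD2, FZD3, FZD4, FZD5, FZD6, FZD7 and FZD9 had no peak in the gene or the 1 kb around it. The median distance from their starts to the nearest peak over the 6 samples was 49.7 kb for FZD9, 81.1 kb for FZD7, 94.5 kb for FZD4 and between 631 and 1454 kb for the others.

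The antagonists differed between and within families. SFRP2 (chromosome 4, 153780591 to 153789083, minus strand), which binds WNT ligands through a frizzled-like domain, had a median rank of 87.0. Its peaks stood upstream of the start and in intron 1, with a highest fold enrichment of 7.54, 8.41, 7.79, 8.93, 5.27 and 5.38. Both 232P samples lay below both WT and both 231K samples. SFRP5 had 6.35, 7.57, 5.33, 4.58, 6.46 and 3.32, where both 231K samples lay below both WT samples and the 232P samples did not. SFRP1 was marked weakly and not at its canonical start in any sample, with 226, 610, 350, 444, 336 and 498 bp covered at its other annotated start. WIF1 (chromosome 12, 65050626 to 65121305, minus strand), a secreted inhibitor unrelated to the frizzleds, had peaks along its length, with 36.0, 52.2, 30.3, 56.9, 8.90 and 34.5 kb outside the start windows. At its starts the fold enrichment was 4.31, 7.15, 5.50, 7.92, 5.97 and 6.62, without an order by genotype. DKK1, DKK2 and DKK4, whose proteins bind the coreceptors LRP5 and LRP6, the divergent family member DKK3, and SFRP4 and FRZB had no peak in the gene or the 1 kb around it. The nearest peak to the start of DKK1 lay at a median distance of 2914 kb, that of FRZB at 2096 kb and that of DKK3 at 1546 kb. Over the 20 members without any peak in the gene this distance had a median of 595 kb, and 12 of them (60.0%) were more than 500 kb away, against a median of 242 kb and 28.3% for the 14530 protein-coding genes without one.

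Among the R-spondins, which enhance WNT signalling, the length of the marks differed widely. RSPO2 (chromosome 8, 107899316 to 108083642, minus strand) had the most covered length of all members, with 77.5, 109, 76.5, 113, 21.0 and 101 kb outside the start windows. Only 232P replicate 1 stood apart. Its highest fold enrichment at the starts was 8.73, 8.83, 6.97, 9.59, 5.27 and 6.82, and both 232P samples lay below both WT samples. RSPO3 had 28.3, 48.3, 24.3, 50.6, 7.25 and 39.7 kb covered, and its start peaks had a fold enrichment of 5.96, 9.25, 3.97, 4.58, 6.96 and 3.53. RSPO1 (chromosome 1, 37611350 to 37634892, minus strand) was marked in shorter peaks, with 4.93, 5.74, 3.77, 5.59, 1.54 and 3.05 kb outside the start windows. Its fold enrichment was 6.35, 7.15, 6.97, 9.17, 4.32 and 3.54, lowest in the 232P samples. RSPO4 had a TSS mark of 89 bp in WT replicate 1 only. Of the receptors for R-spondins, LGR6 was marked in 5 samples, with a fold enrichment of 3.58, 3.44, 3.28, 3.73 and 7.46 and no mark in 232P replicate 2. LGR5 had 1 peak in the gene, of 231K replicate 2, and AXIN2, a beta-catenin target that feeds back on the pathway, had none.

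**Figure D5:**
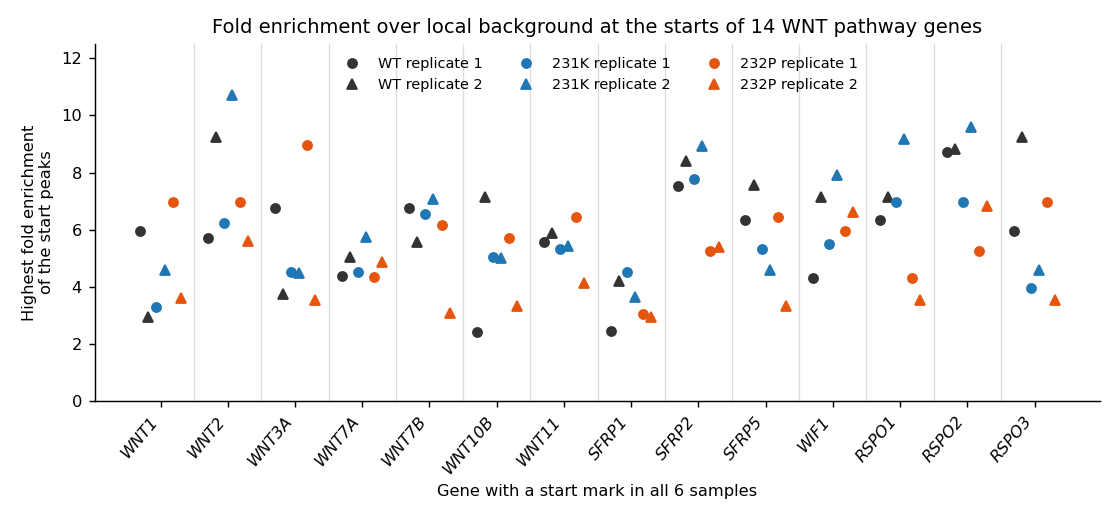
Highest fold enrichment over the local background (y axis) of the peaks within 1 kb of a start, for the 14 WNT pathway genes (x axis) with such a peak in all 6 samples, 1 point per sample. Circles are replicate 1 and triangles replicate 2. In RSPO1, RSPO2 and SFRP2 both 232P points lie below both WT points, and in the other 11 genes the 2 genotypes overlap.

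The comparison between genotypes asked whether the marks of these genes were lost in Tau-KO cells. No member lost its TSS mark, defined as a mark in both WT samples and in neither sample of a line. In 231K this was 0 of the 17 members marked in both WT samples, and 2.52% of all such genes lost theirs. In 232P it was 0 of 17, against 7.0% of all such genes. No member gained a mark either, in 231K (0 of 25 against 0.206% of all genes without a mark in WT) or in 232P (0 of 25 against 0.0813%). The background shares are low and the members few, so these counts do not set the members apart from other genes. With 1 library left out, marks are lost more easily in all genes. In 232P, WNT9A and LGR6 then counted as lost without 232P replicate 1 (2 of 17 members beside 14.2% of all genes), WNT4 without 232P replicate 2 (1 of 17 beside 21.5%), WNT5A without WT replicate 1 (1 of 19 beside 11.2%), and WNT5B and RSPO4 without WT replicate 2 (2 of 19 beside 11.9%). In 231K, RSPO4 counted as lost without WT replicate 2 (1 of 19 beside 6.87%) and WNT9A without 231K replicate 1 (1 of 17 beside 5.18%). As gained counted WNT5B in 231K without WT replicate 1 (1 of 27 beside 0.648%) and WNT9B in 232P without WT replicate 2 (1 of 27 beside 0.409%). The number of members marked in both samples of a genotype was 17 in WT, 17 in 231K and 15 in 232P, and the number of all genes was 3300, 3138 and 2438. Within replicate 1 the members went from 19 to 18 and 17 and all genes from 3653 to 3354 and 2898, and within replicate 2 the members from 19 to 19 and 16 and all genes from 3683 to 3661 and 3153.

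Levels were compared in limma fits over all genes with a TSS mark in all samples, or with enough covered length. For the fold enrichment at the start, 3 of 14 members (RSPO1, RSPO2 and SFRP2) were lower in both 232P samples than in both WT samples, and 35.4% of all 2281 genes were. None of the 14 was higher in both, with 4.87% of all genes. In 231K, 3 of 14 (WNT11, SFRP5 and RSPO3) were lower in both samples, with 7.50% of all genes, and none was higher, with 17.0%. These counts depend on single libraries, for all genes as for the members. In 232P they were 10 of 14 members without WT replicate 1, beside 66.7% of all genes, and 9 of 15 without 232P replicate 1, beside 48.3%. Without 232P replicate 2 they were 4 of 15, beside 58.6%. In 231K they were 5 of 14 without WT replicate 2, beside 14.2%, 4 of 14 without WT replicate 1, beside 30.5%, and 4 of 14 without 231K replicate 2, beside 39.8%. At equal depth 2 of 13 members (RSPO1 and RSPO2) were lower in 232P, beside 20.7% of all genes, and 0 of 13 in 231K, beside 7.28%. In the 3 genes without overlap, the difference of 232P against WT was -0.78 ± 0.30 (log2, SE, 2 samples each) in RSPO1, -0.58 ± 0.26 in SFRP2 and -0.55 ± 0.27 in RSPO2. RSPO3 with -0.58 ± 0.35 and SFRP5 with -0.58 ± 0.34 differed as much, but their samples overlapped. Each of these 5 had an adjusted p of 0.835 in limma, and the largest difference of 231K among the members was -0.80 ± 0.35 in RSPO3 with an adjusted p of 0.999. None of them passed the threshold of 0.05. limma called 0 of 2281 genes in either line, and 0 members, and without 232P replicate 2 it called 1 gene, not a member, in 231K. At an unadjusted p under 0.05 it gave 55 genes, with 1 member, in 231K and 125 genes, with 2 members, in 232P. The median difference of the 14 members was 0.09 in 231K and -0.18 in 232P on the log2 scale, beside 0.07 and -0.20 over all genes tested. These medians rest on single libraries. In 231K the median of the members was -0.08 without WT replicate 1, -0.08 without 231K replicate 2 and 0.18 without 231K replicate 1, and that of all genes ranged from -0.06 to 0.21 over the omissions. In 232P the median of the members was -0.52 without WT replicate 1, -0.37 without 232P replicate 1 and -0.06 without 232P replicate 2, and that of all genes ranged from -0.30 to -0.11.

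The covered length of the gene was lower in 232P than in WT for many genes, members and others alike, and none of these differences passed the test. Of 23 members tested, 11 were covered less in both 232P samples than in both WT samples, WNT1, WNT2, WNT3A, WNT7A, WNT7B, WNT11, FZD10, SFRP2, SFRP5, WIF1 and RSPO1, beside 46.8% of all 4885 genes, and 1 was covered more, LGR6, beside 0.798%. In 231K 6 were covered less, beside 13.6%, and 2 more, beside 5.32%. When each sample was set against the WT sample of its own replicate number, a count added after the data were seen, 14 members were covered less in 232P in both pairs, with WNT5B, RSPO2 and RSPO3 besides the 11, beside 72.1% of all genes, and 2 were covered more (SFRP1 and LGR6), beside 1.74%. In 231K 8 were covered less in both pairs, beside 27.4%, and 3 more, beside 18.4%. The difference of 232P against WT was -1.42 ± 0.68 in WNT2, -1.24 ± 0.73 in WIF1, -1.02 ± 0.45 in RSPO1 and -0.96 ± 0.81 in RSPO2, on the scale of log2(bp + 100), with adjusted p-values of 0.470 to 0.485 in limma. The median was -0.75 over the members and -0.98 over all genes tested, and for the covered length of the start windows it was -0.37 over 20 members and -0.74 over 3902 genes. Without 232P replicate 1 the medians of the gene were -0.31 over the members and -0.32 over all genes, and those of the start windows -0.58 and -0.36, which turns their order. Without 232P replicate 2 they were -0.85 and -1.52 for the gene and -0.02 and -1.06 for the start windows. limma called 0 genes in either fit. Without 232P replicate 2, which leaves replicate 1 with the fewest peaks alone for 232P, it called 684 start windows, with RSPO2 as the 1 member, and 1906 genes, with the 6 members WNT2, FZD8, WIF1, RSPO1, RSPO2 and RSPO3, all lower in 232P. Without 232P replicate 1, RSPO2 was 0.14 higher in 232P. At an unadjusted p under 0.05 it gave 501 genes for the start windows and 513 for the genes in 232P, and 87 and 93 in 231K, none of them a member. In data simulated for 232P against WT the 2 coverage fits also found 0% of changes of 2 on the log2 scale over 3902 and 4885 genes, so that 0 calls say little here, while the fit of the enrichment over 2281 genes found 93.0% of them and 45.0% of changes of 1. For 231K against WT the same shares were 0% in the coverage fits and 95.0% and 47.0% for the enrichment. The samples of 232P had the fewest peaks. The equal depth setting thinned the heights and dropped peaks below a p-value threshold, but the remaining peaks kept their full width. It thus does not bring the covered length itself to equal depth. In this setting the median difference of the covered gene length in 232P was -0.75 over the members and -0.82 over all genes. It was -0.70 and -0.73 when all lists were cut to the same number of peaks by strength. Among peaks whose -log10 q-value reached 5 it was -2.41 over the members and -1.97 over all genes, and for the start windows -1.83 and -1.57, so that the members were then the lower ones. In 231K the start windows gave -0.70 and -0.06 at this threshold, beside -0.18 and -0.08 with all peaks.

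Fewer genes were marked in the rest of the pathway. Of 54 further genes, which code for proteins of WNT secretion, coreceptors, the intracellular cascade, nuclear factors, other antagonists, feedback targets and planar polarity, 6, 4, 2, 4, 1 and 4 had a TSS mark, between 1.85% and 11.1% beside the 14.5% to 18.4% of all protein-coding genes, and 46 had none in any sample. The difference was not tested. None of 9 coreceptor genes was marked, and of 20 genes of the intracellular cascade only DACT1 was, in 2 samples. Of all 20033 protein-coding genes 15637 had no TSS mark in any sample, so these counts do not set the small classes apart. SOSTDC1, a secreted antagonist, was the only one of the 54 with a mark in all samples (1.85%), with a fold enrichment at the start of 3.61, 6.53, 5.13, 4.81, 4.73 and 5.97. RNF43, a ubiquitin ligase that removes frizzleds from the surface and is opposed by R-spondins, had 3.56, 7.33, 3.84, 7.52 and 5.93 and no mark in 232P replicate 1. LEF1, the nuclear partner of beta-catenin, lost its mark by the definition above in 232P, as 1 of the 3 of these genes that were marked in both WT samples, beside the 7.0% of all such genes. It had 353 and 755 bp covered in WT, 0 and 639 bp in 231K and none in 232P, in peaks with a fold enrichment of 2.74, 3.64 and 3.05 and a median percentile rank of 10.6 in the 3 lists that held them. Its difference of 232P against WT was -2.64 ± 1.12 on the scale of log2(bp + 100), with an adjusted p of 0.419 in limma. None of the 54 was called in the fits with all 6 samples, and neither was any other gene.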

How the data were processed

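H3K27me3 ChIP-seq of 3 SH-SY5Y genotypes was done with 2 replicates each. The submitters' processing notes name BWA, deepTools and hg38, and the study's methods name MACS for the peaks, called in each sample. These methods give a broad peak setting, but the deposited lists are in the narrowPeak format. Which setting made them, and whether the inputs served as control, is not given in the sources used here, and both bear on the peak widths and on the fold enrichment. In the deposited files, the fold enrichment is a ratio of reads at a peak's highest point to its local background (1 is added to both). Further deposited columns hold the p-value and q-value as -log10, and the deposited score is that q-value column times 10 without decimals. The q-value threshold is not given in the sources used here, and the values were not normalized between samples. The lists hold no read counts, so no counting interval can be given. From the fold enrichment and p-value, the height and background were recovered (right for 99.9% of 16562 simulated peaks), and the relative depth is the genome-wide background divided by the smallest peak width.

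Genes were the protein-coding genes of GENCODE release 44. Windows were 1 kb around all annotated starts, and the gene with 1 kb on each side. Covered bp as log2(bp + 100), in genes covered in at least 2 samples, and the log2 of the highest fold enrichment, in genes with a TSS mark in all samples, were fitted with limma 3.58.1 (trend, R 4.3.3) over all genes, with Benjamini-Hochberg adjustment. The fits were tested on simulated data. The alternatives were other thresholds, equal peak number (147118) or depth, other windows, overlaps, pseudocounts and normalizations, a replicate block, and leaving out each replicate. The main fits used genotype only, without pairing of replicates. Replicate numbers were taken as pairs only in the added count of covered gene length, and the replicate block was an alternative fit. For the covered length, the deviations of same-numbered samples correlated in each of the 3 pairs of genotypes (r of 0.127 to 0.253 over 3902 start windows and 0.174 to 0.304 over 4885 genes). For the fold enrichment, with r of 0.0939 to 0.110 over 2281 genes, no pairs were counted. The differential test of the study needs read counts and was not run.

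Named were, by rule, the members lost or gained or past an adjusted p of 0.05, the 2 highest ranking members of each class, the members without any peak, and LEF1 of the other genes. Further named genes were picked once their values were known. The members and all lists were chosen with earlier results of these data known. Marker genes of the neuroblastoma line itself are not reported here.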

Additional observations from a re-analysis of the deposited data

How the results depend on the processing

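At a -log10 q-value of at least 5, members marked in every sample fell to 8 in WT, 8 in 231K, 2 in 232P and 1 over all samples (17.4%, 17.4%, 4.35% and 2.17%, beside 8.02%, 7.64%, 3.11% and 2.78% of all genes), and 1 of 8 was lost in 231K (RSPO3, beside 3.36% of all genes) and 1 of 8 in 232P (RSPO1, beside 19.1%). With the canonical start only, 9 members were marked in every sample (19.6% beside 8.53%) and 1, WNT4, was gained in 231K (beside 0.224%). An equal number of strongest peaks gave 1 loss in 231K (WNT9A, beside 2.98%), and an overlap of at least 200 bp 1 gain (WNT5B, beside 0.185%). With a window of 2.5 kb or the whole gene, 2 frizzled receptors were marked in at least 1 sample. Members with a lower fold enrichment in every sample of a line than in every WT sample were 0 in both lines at a -log10 q-value of at least 5, where only WNT2 could be compared (beside 5.58% of all genes in 231K and 35.4% in 232P), and 0 of 13 in 231K at equal depth (beside 7.28%). Leaving out each replicate in turn gave 0 to 1 members lost (2.52% to 8.55% of all genes) and 0 to 1 gained (0.206% to 1.06%) in 231K, 0 to 2 lost (7.0% to 21.5%) and 0 to 1 gained (0.0813% to 0.713%) in 232P, 3 to 5 members with a lower enrichment in 231K (8.21% to 39.8%) and 3 to 10 in 232P (35.2% to 66.7%).

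Leaving out 232P replicate 2, the sample that then stands alone for 232P being replicate 1 with the fewest peaks and an assumed spread like that of the others, limma called 684 start windows with 1 member (RSPO2) and 1906 genes with 6 members (WNT2, FZD8, WIF1, RSPO1, RSPO2 and RSPO3) in 232P against WT, all lower, and 1 gene in the fit of the enrichment of 231K. Over all such omissions the calls in 232P against WT ranged from 0 to 684 start windows (0 to 1 members) and 0 to 1906 genes (0 to 6 members), and those of the enrichment in 231K from 0 to 1. The difference of RSPO2 in covered gene length reversed to 0.14 without 232P replicate 1 and was -2.06 without 232P replicate 2. Quantile normalization moved the median over all genes of 232P against WT from -0.74 to 0.05 for the start windows and from -0.98 to 0.03 for the genes, and the medians of the members from -0.37 to 0.51 and from -0.75 to 0.32. The replicate block changed no call, with 0 genes in each fit. The fit without a filter on genes could not be fitted and was replaced, after the data were seen, by genes covered in at least 1 sample. The number of reads behind the lists is unknown, so no precision from depth can be given.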
